A study of Mus musculus with 212 samples.

Results

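Cardiomyocytes grown from mouse embryonic stem (ES) cells were compared with cardiomyocytes taken from the ventricle of the heart, to see how mature the cells made in culture were. The late ES-derived cells were all 20 cells of the D23-D29 table, 10 with names beginning D29 and 10 with names beginning D23, out of 200 cells in the series. They were set against 2 groups of the ventricular table, 5 neonatal and 10 adult cells, in separate comparisons, and the negative and positive control columns were left out. In the study, 42 TaqMan assays of 33 genes were run by quantitative PCR on microfluidic chips, each on the material of 1 mouse cell of the cardiovascular lineages, and the values fill 7 tables. The labels give the embryoid body, an aggregate of differentiating ES cells, as the source of the late cells and the ventricular chamber as the source of the heart cells, and "cardiac" as the cell type of both. The prefixes are read here as days 23 and 29 of differentiation. Strain, genotype, the ages of the animals and the number of animals or cultures are not given in the labels, and the culture conditions are not given either.

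Values are expression in cycles, which is 25 minus the deposited quantification cycle (Ct). A value of 0 means not detected, and 1 cycle corresponds to 2-fold at full PCR efficiency. As no animal or culture is named, the cells of a set together make 1 sample, so no test was run. The SD is the spread between cells, and a difference of means of at least 1 cycle is what is called higher or lower. Differences are late minus ventricular, and a pair of them stands for neonatal and adult cells in that order. The 2 kinds of cells lie in different tables, so table and origin cannot be told apart. The positive control of the late table was higher than that of the ventricular table by a median of 0.88 cycles, and by 0.83 over the contractile assays, after the ventricular column was moved back by the 1 row by which 40 of its values stand lower than in the reference table. All 10 contractile assays of the control were higher in the late table, by 0.0126 to 1.48 cycles. The negative controls of both tables gave no signal on any assay. The sample titles of the late cells call them cells of early stages, against their table and cell names, and the table and cell names were followed. Of the late cells, D29-2 and D29-3 recur with identical values as 2 reference cells of the series. Without them, 5 assays were higher and 20 lower than in neonatal cells, with a contractile median of -2.28. With all 20 late cells these were 5, 19 and -2.22.

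Cardiac contraction rests on the sarcomere, in which myosin heavy and light chains pull on thin filaments whose response to calcium is set by the troponin complex. In the mouse, heart muscle matures around birth: the fast myosin heavy chain of Myh6 takes over in the ventricle from the slow one of Myh7, cardiac troponin I of Tnni3 replaces the slow skeletal form, and contractile transcripts build up. A small set of transcription factors, among them Nkx2.5, Gata4, Mef2C, Tbx5 and the Hand factors, drives the cardiac programme from early mesoderm onward.

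Myh6 and Myh7 lie next to each other and have their own promoters, and the balance of the pair is a usual measure of ventricular age in the mouse. Their windows of 250 bases before the start (RefSeq, GRCm38.p6), chr14:54966608-54966857 for Myh6 and chr14:54994627-54994876 for Myh7, both on the minus strand, are shown because this pair was compared within cells. Capitals mark the M-CAT motif GGAATG, a binding motif of TEAD factors in muscle promoters.
Myh6: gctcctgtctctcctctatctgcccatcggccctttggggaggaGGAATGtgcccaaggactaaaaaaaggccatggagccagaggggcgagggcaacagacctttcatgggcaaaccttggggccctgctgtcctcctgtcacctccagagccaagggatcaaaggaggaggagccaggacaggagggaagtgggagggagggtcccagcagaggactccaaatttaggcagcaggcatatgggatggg
Myh7: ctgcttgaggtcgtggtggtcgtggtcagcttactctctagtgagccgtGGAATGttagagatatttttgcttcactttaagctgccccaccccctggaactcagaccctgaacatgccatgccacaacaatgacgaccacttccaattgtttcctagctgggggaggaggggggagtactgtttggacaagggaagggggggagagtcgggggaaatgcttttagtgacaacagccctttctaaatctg
The motif begins 206 bases before the start in Myh6 and 201 in Myh7. The window of the other Myh7 start in the table holds no match. Searched on both strands, GGAATG was found in 3 of the 9 windows of the 6 contractile genes measured (Myh6, Myh7 and Tnnt2), and in 12.6% of 32851 windows of this length. AGATAA, which is bound by factors of the GATA family, was found in 2 of the 9 (Myl2 and Tnnt2) and in 9.99% of all windows. The MEF2 motif was found in 0 of the 9 and in 2.92% of all windows. A match is a description of the letters, not of binding.

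All 20 late cells carried heart muscle transcripts. Each detected Tnnt2-1 (cardiac troponin T), Tnni3-1, Myh6-1 and Actn2 (alpha-actinin, the anchor of thin filaments in the Z-disc), as did every ventricular cell. In all, 10 assays were detected in every late cell and 9 in none. Late cells detected 21.2 ± 2.85 assays (SD, n = 20), against 25.4 ± 1.95 in neonatal (n = 5) and 21.7 ± 3.06 in adult ventricular cells (n = 10). The cardiomyocyte label was borne out by these assays, while 2 of the 20 cells, both from D29, lacked the ventricular marker Myl2.

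**Figure D1:**
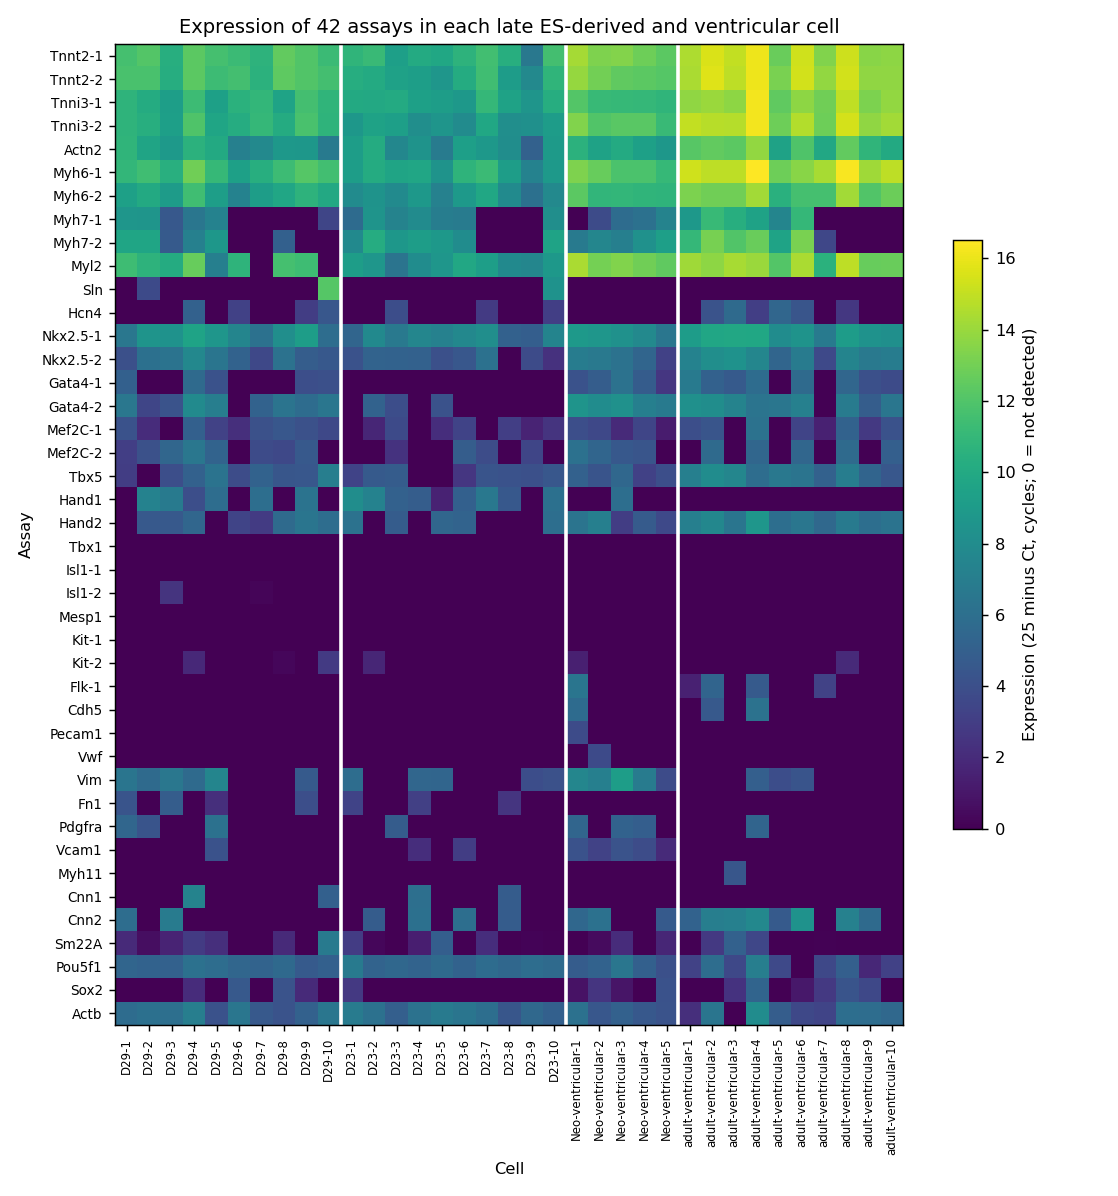
Expression (25 minus Ct, cycles, colour scale; 0 is not detected) of the 42 assays (rows) in each late ES-derived, neonatal and adult ventricular cell (columns; white lines part D29, D23, neonatal and adult cells). Most contractile rows at the top are bright in every set and brightest in the adult cells. Both Myh7 rows are dark in 6 late and 3 adult cells, and Myl2 is dark in 2 late cells. Hand1 is dark in all 10 adult cells, and the endothelial rows (Flk-1, Cdh5, Pecam1, Vwf) are dark in all 20 late cells.

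The late cells stood below both ages of ventricle in most of the contractile genes, and further below the adult cells. Against neonatal cells, 5 of the 42 assays (11.9%) were at least 1 cycle higher, 19 (45.2%) were at least 1 cycle lower and 18 lay within 1 cycle. Against adult cells, 7 (16.7%) were higher, 21 (50%) were lower and 14 lay within 1 cycle. Relative to the positive control moved back, over the assays detected by at least 3 cells of both sets, the split was 1 higher and 19 lower of 26 against neonatal cells, and 2 and 20 of 25 against adult cells. Of the 5 assays higher than in neonatal cells, 4 (Sln, Hcn4, Cnn1 and Fn1) were detected in none of the 5 neonatal cells and in 3 to 7 of the 20 late cells. Of the 10 contractile assays, 9 were lower and 0 higher than in neonatal cells, with a median difference of -2.22 cycles, whereas the median over all 42 assays was -0.82. All 10 were lower than in adult cells, with a median of -3.80, where all assays had -0.84.

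The troponins differed in every pair of assays. Tnni3-1 lay between 8.64 and 11.56 cycles in the late cells with a median of 10.08, against 12.08, 11.13, 11.04, 11.01 and 10.77 in the 5 neonatal cells and 12.47 to 16.19 in the adult cells (median 13.74). The ranges of late and neonatal cells overlapped, with 5 of the 20 late cells at or above the lowest neonatal cell, and no late cell reached the lowest adult cell. The difference was -1.15 cycles against neonatal and -3.82 against adult cells. The other assay of the gene, Tnni3-2, gave -2.54 and -4.75, so the 2 assays agreed in direction and not in size for the neonatal comparison. Within cells, Tnni3-1 minus Tnni3-2 averaged 0.37 ± 0.64 in late (n = 20), -1.02 ± 0.39 in neonatal (n = 5) and -0.55 ± 0.40 in adult cells (SD, n = 10), where the positive control was 0.63 higher in the late table.

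Tnnt2-1 ran from 6.61 to 12.53 cycles in the late cells (median 11.21), against 14.26, 13.32, 13.44, 12.86 and 12.31 in neonatal cells and 12.74 to 16.08 in adult cells (median 14.73). Only 2 late cells were at or above the lowest neonatal cell, and none reached the adult range. The differences were -2.36 and -3.63, and those of Tnnt2-2 were -2.14 and -4.00. The 4 assays of the 2 troponin genes were the ones in which every late cell lay below every adult cell, 9.52% of the 42 assays. No assay separated the late from the neonatal cells in this way (0%), and no assay had every late cell above every ventricular cell of either age.

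**Figure D2:**
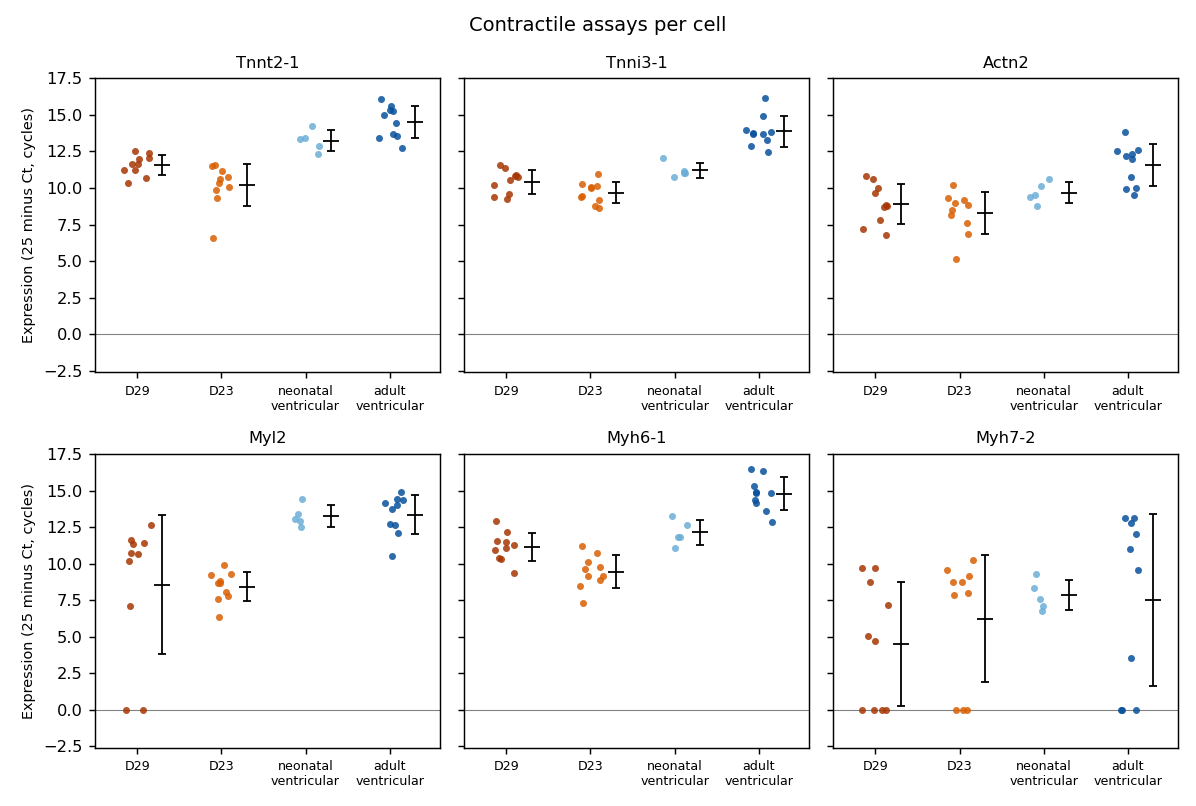
Expression (25 minus Ct, cycles) of 6 contractile assays in single cells of D29, D23, neonatal ventricle and adult ventricle; each point is a cell, the black mark is the mean and the bar the SD between cells. For Tnnt2-1 and Tnni3-1 every late cell lies below the adult cells, and in Myl2 only D29-4, at 12.65, reaches the lowest neonatal cell.

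The ventricular regulatory light chain, Myl2, had the most negative difference of the 42 assays in both comparisons, as measured. It was detected in 18 of the 20 late cells (90%, exact 95% interval 68.3 to 98.8%, counting error only) with a median of 9.0 and a highest value of 12.65, in all 5 neonatal cells at 14.42, 13.08, 13.41, 12.95 and 12.48, and in all 10 adult cells from 10.52 to 14.89 (median 13.88). One late cell, D29-4, was at or above the lowest neonatal cell and 6 were at or above the lowest adult cell. The differences of means were -4.77 and -4.86. Unlike the troponins, Myl2 thus differed by about the same amount from both ages, the neonatal and adult means being 13.27 ± 0.72 and 13.36 ± 1.34. The rank of Myl2 against adult cells did not hold over detecting cells alone. There Myl2 differed by -3.92, and Tnni3-2, Myh6-1 and Tnnt2-2 by -4.75, -4.48 and -4.00. D23 cells, which all detected Myl2, lay further below adult cells in Tnni3-2 (-5.66) and Myh6-1 (-5.32) than in Myl2 (-4.93). Against neonatal cells, they were further below in Gata4-2 (-6.44) than in Myl2 (-4.84). Left without the 4 cells that lacked Myl2 or detected Sln, an alternative chosen after the data were seen, the contractile medians were -2.30 and -3.91, as large as with all 20.

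Actn2 of the Z-disc overlapped with both ages of ventricle. It ran from 5.11 to 10.79 cycles in late cells (median 8.79), against 10.60, 9.53, 10.11, 9.37 and 8.76 in neonatal and 9.53 to 13.83 in adult cells (median 12.08). Of the late cells, 11 of 20 late cells were at or above the lowest neonatal cell. The differences were -1.08 and -2.97, the neonatal one being smaller than the SD between late cells of 1.41, and it was -0.85 without Neo-ventricular-1 and -0.97 without Neo-ventricular-3.

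Myh6, the fast myosin heavy chain, was lower in late cells than at either age. Myh6-1 ran from 7.34 to 12.92 cycles in late cells (median 10.37), against 13.30, 12.66, 11.83, 11.83 and 11.07 in neonatal and 12.86 to 16.50 in adult cells (median 14.87). Of the late cells 6 were at or above the lowest neonatal cell and 1, D29-4, was at or above the lowest adult cell. The differences were -1.84 and -4.48 for Myh6-1 and -2.30 and -3.77 for Myh6-2.

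Myh7, the slow chain, was uneven in every set. Myh7-2 was detected in 13 of 20 late cells with a mean of 5.37 ± 4.27, in all 5 neonatal cells with 7.84 ± 1.01 and in 7 of 10 adult cells with 7.51 ± 5.89 (SD). In adult cells it was above 9 cycles in adult-ventricular-1 to adult-ventricular-6, at 3.51 in adult-ventricular-7 and undetected in the other three. Among late cells it reached 10.22, above the neonatal cells in 4 of them, and 6 late cells detected neither Myh7 assay. The differences were -2.47 and -2.14, and over detecting cells alone the neonatal one turned to 0.42. Myh7-1 differed by -0.08 and -1.28.

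Within a cell the amount of RNA cancels, so differences between a pair of assays in the same cell can be set between groups. Myh6-1 minus Myh7-1 averaged 3.41 ± 2.18 in the 13 late cells with both, against 6.07 ± 2.14 in 4 neonatal and 4.96 ± 1.66 in 6 adult cells (SD). This leaves out the 7 late cells without Myh7-1, and 9 of the 13 lay below the lowest neonatal value of 3.72. Myh6-2 minus Myh7-2 was at 0.66 ± 2.31 in 13 late, 3.30 ± 1.53 in 5 neonatal and 1.71 ± 3.09 in 7 adult cells. Over all cells, with undetected assays at 0, the first pair averaged 5.76 in late, 7.52 in neonatal and 8.95 in adult cells, and the second 3.48 in late, 3.30 in neonatal and 5.10 in adult cells. In both pairs the adult mean lay below the neonatal one among cells with both assays, and above it over all cells. The second pair thus differed by 0.17 cycles between late and neonatal cells when every cell was kept, and its balance rests on which cells are kept. The same differences in the positive control were -0.46 and -0.38 between the tables. Among cells with both assays, the first pair averaged 4.87 ± 2.28 in 6 D29 cells and 2.16 ± 1.13 in 7 D23 cells, and the second 2.30 ± 2.36 in 6 D29 cells and -0.75 ± 1.02 in 7 D23 cells.

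Tnni3-2 minus Tnnt2-2 was -0.94 ± 0.79 in late, -0.54 ± 0.42 in neonatal and -0.20 ± 0.55 in adult cells, differences within 1 cycle. Myl2 minus Tnnt2-2 was -1.13 ± 1.14 in the 18 late cells with both, against 0.50 ± 0.31 in neonatal and -1.27 ± 0.92 in adult cells. Relative to troponin T, then, Myl2 of 17 of these 18 late cells lay below every neonatal cell, and the late mean was 0.14 above the adult one, or 0.86 cycles below it over all 20 late cells, at -2.13 against -1.27. The control of this pair differed by 0.13 between the tables.

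**Figure D3:**
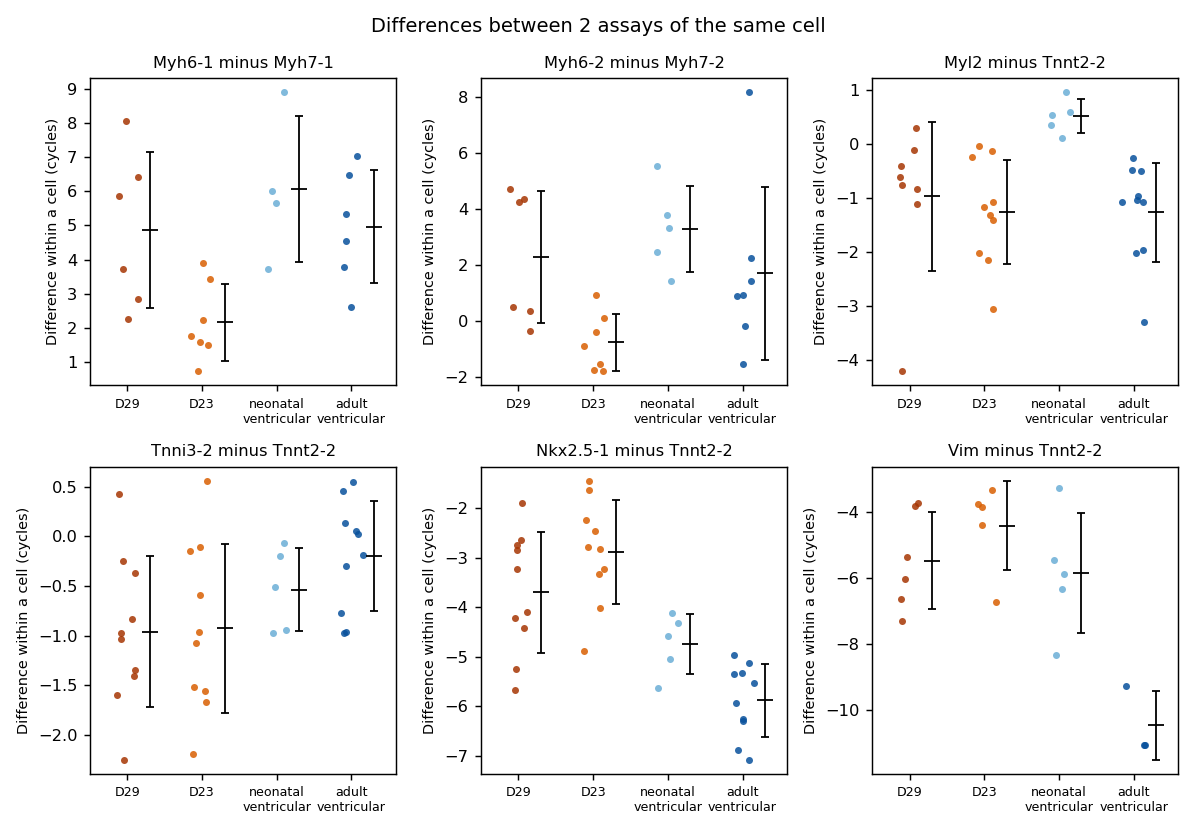
Difference between 2 assays of the same cell (cycles; each panel has its own scale) in cells of D29, D23, neonatal and adult ventricle that detect both; points are cells, black marks means and bars SD between cells. Among these cells, D23 cells lie lowest in both Myh6 minus Myh7 panels, and Nkx2.5-1 minus Tnnt2-2 is highest in D23 and lowest in adult cells.

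The 2 days of culture differed in the same direction as culture and heart in most contractile assays. Tnnt2-2 averaged 11.56 ± 0.69 on D29 and 9.69 ± 1.07 on D23, Tnni3-2 10.60 ± 0.84 on D29 and 8.77 ± 0.65 on D23, and Myh6-1 11.15 ± 0.99 on D29 and 9.46 ± 1.12 on D23 (SD, n = 10 each). For Tnni3-2, D29 cells ran from 9.31 to 11.98 and D23 cells from 7.94 to 9.86, so the days overlapped. Myh7 ran the other way, with Myh7-2 at 4.51 ± 4.23 on D29 and 6.23 ± 4.35 on D23. The contractile median against neonatal cells was -1.37 for D29 and -2.87 for D23, and against adult cells -3.04 for D29 and -4.42 for D23. Averaged per cell, the 10 contractile assays came to 9.08 ± 1.33 on D29 and 8.40 ± 1.19 on D23, against 10.8 ± 0.187 in neonatal and 12.3 ± 1.59 in adult cells (SD), with 12 of the 20 late cells detecting all 10.

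A few late cells carried the atrial transcript, Sln, or lacked the ventricular one, Myl2. Sln, sarcolipin, an inhibitor of the calcium pump typical of atrial muscle, was detected in 3 of 20 late cells (15%, exact interval 3.21 to 37.9%), against 0 of 5 neonatal cells and 0 of 10 adult ventricular cells, where 0 allows at most 60% and 30%. Of the late cells, 16 detected Myl2 alone, 2 detected both (D23-10 and D29-2), 1 detected Sln alone and 1, D29-7, neither. The cell with Sln alone, D29-10, had Sln at 12.13 cycles, within the 11.94 to 13.31 of the 5 neonatal atrial cells of the series, and the highest Tbx5 of the late cells, 7.07. In D23-10 Sln was at 8.38 beside Myl2 at 8.79, and in D29-2 it was at 3.70 beside 10.64. All 15 ventricular cells detected Myl2 alone. These counts were the same with Ct values above 23 taken as undetected.

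Hcn4, the pacemaker channel of conduction cells, was detected in 7 of 20 late cells, 0 of 5 neonatal cells (at most 60%) and 6 of 10 adult ventricular cells. Its means were 1.28 ± 1.86, 0 and 2.55 ± 2.38, so the late cells were 1.28 cycles above the neonatal and 1.26 below the adult cells. The positive control of Hcn4, moved back, was 1.44 cycles higher in the late table, more than the difference from neonatal cells. How far that bears on these values was not tested. The highest late value, 5.15, was in D29-4, which also had the highest Myl2 and Myh6-1 of the late cells, and the adult cells reached 5.73.

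Among the transcription factors, Hand1 was high and Gata4 low in culture. Hand1, a basic helix-loop-helix factor of early cardiac mesoderm and the embryonic left ventricle, was detected in 15 of 20 late cells with a median of 5.08 and a highest value of 8.08. Among neonatal cells it was detected in Neo-ventricular-3 alone, at 5.95, and among adult cells in 0 of 10, a count compatible with a share of at most 30%. The differences were 3.08 and 4.27, the largest positive ones in both comparisons, and 2.002 and 2.79 with Ct values above 23 taken as undetected. The positive control of Hand1 was 2.53 cycles higher in the late table, and how far that bears on these values was not tested.

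Gata4, a zinc-finger factor of heart development and growth, was lower by both assays. Gata4-2 was detected in 12 of 20 late cells with a median of 4.03 and a highest value of 7.91, against 8.54, 8.04, 8.34, 7.12 and 6.79 in neonatal cells and 0 to 8.30 in adult cells (median 6.68), where adult-ventricular-7 was the cell at 0. In the late set, 18 cells lay below the lowest neonatal cell. The differences were -4.44 and -2.89, and those of Gata4-1 were -3.38 and -2.99. The days differed here as well: either Gata4 assay was detected in 9 of 10 D29 cells and 3 of 10 D23 cells, and Gata4-2 averaged 5.32 ± 2.28 on D29 and 1.32 ± 2.16 on D23. Over detecting cells alone the differences of Gata4-1 were 0.06 and -0.58.

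Hand2, a relative of Hand1, was detected in 13 of 20 late cells at 3.33 ± 2.65, in all 5 neonatal cells at 4.95 ± 1.76 and in all 10 adult cells at 6.70 ± 0.91 (SD). In late cells Hand1 was thus above and Hand2 below both ages of ventricle. Over detecting cells alone the neonatal difference of Hand2, -1.62, turned to 0.17. Tbx5, a T-box factor of chamber formation, differed by -0.62 from neonatal and -2.56 from adult cells, with late cells at 3.78 ± 1.91 and 17 of 20 detecting it. Mef2C-1 lay within 1 cycle of both ages. Mef2C-2 differed by -1.56 from neonatal and -0.18 from adult cells.

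Nkx2.5, the homeobox factor of the cardiac lineage, lay within 1 cycle of the neonatal level by both assays, as measured. Nkx2.5-1 was detected in every cell, from 4.91 to 9.60 cycles in late cells (median 7.54), at 8.84, 8.66, 8.34, 7.77 and 6.5 in neonatal cells and from 6.75 to 9.89 in adult cells (median 8.8). The late range overlapped both, with 15 late cells at or above the lowest neonatal and 13 at or above the lowest adult cell. The differences were -0.69 and -1.42 for Nkx2.5-1, and -0.92 and -2.06 for Nkx2.5-2. D23 cells alone differed from neonatal cells by -1.22 and -1.65 for the 2 assays. The positive control was 2.73 cycles higher in the late table for Nkx2.5-1 and 2.81 for Nkx2.5-2. Relative to that control both neonatal differences would be more than 1 cycle below 0, so the neonatal level holds only as measured. Of the Nkx2.5-1 differences, the adult one was -4.15 relative to the positive control moved back. Set against troponin T of the same cell, Nkx2.5-1 minus Tnnt2-2 averaged -3.29 ± 1.18 in late cells, against -4.74 ± 0.61 in neonatal and -5.87 ± 0.73 in adult cells, and 15 of 20 late cells lay above every neonatal cell and 18 above every adult cell. The positive control of this pair was 1.42 cycles higher in the late table, nearly the late minus neonatal difference of 1.44, so that difference cannot be told apart from the table. Across the 20 late cells Nkx2.5-1 and the contractile mean had a Pearson r of 0.69 and a Spearman rho of 0.63. For Myl2 and Myh7-2, which belong to the contractile list, the mean was taken without the assays of the same gene. On these terms Nkx2.5-1 had the highest r of the assays so compared. The r was 0.45 for Vim, 0.44 for Gata4-2, 0.34 for Myl2 and 0.29 for Hand1. For Actb, Myh7-2 and Tbx5 it was 0.23, 0.19 and -0.19. These values are a description, since cells share a table, come from 2 days and differ in their amount of RNA. By list, 1 of 9 transcription factor assays was higher (Hand1) and 4 lower than in neonatal cells, with a median of -0.92. Over all 42 assays 11.9% were higher and 45.2% lower, with a median of -0.82, so the list lay near all assays there. Against adult cells 1 was higher (Hand1) and 6 lower, with a median of -2.06, where 16.7% of all assays were higher and 50% lower, with a median of -0.84.

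**Figure D4:**
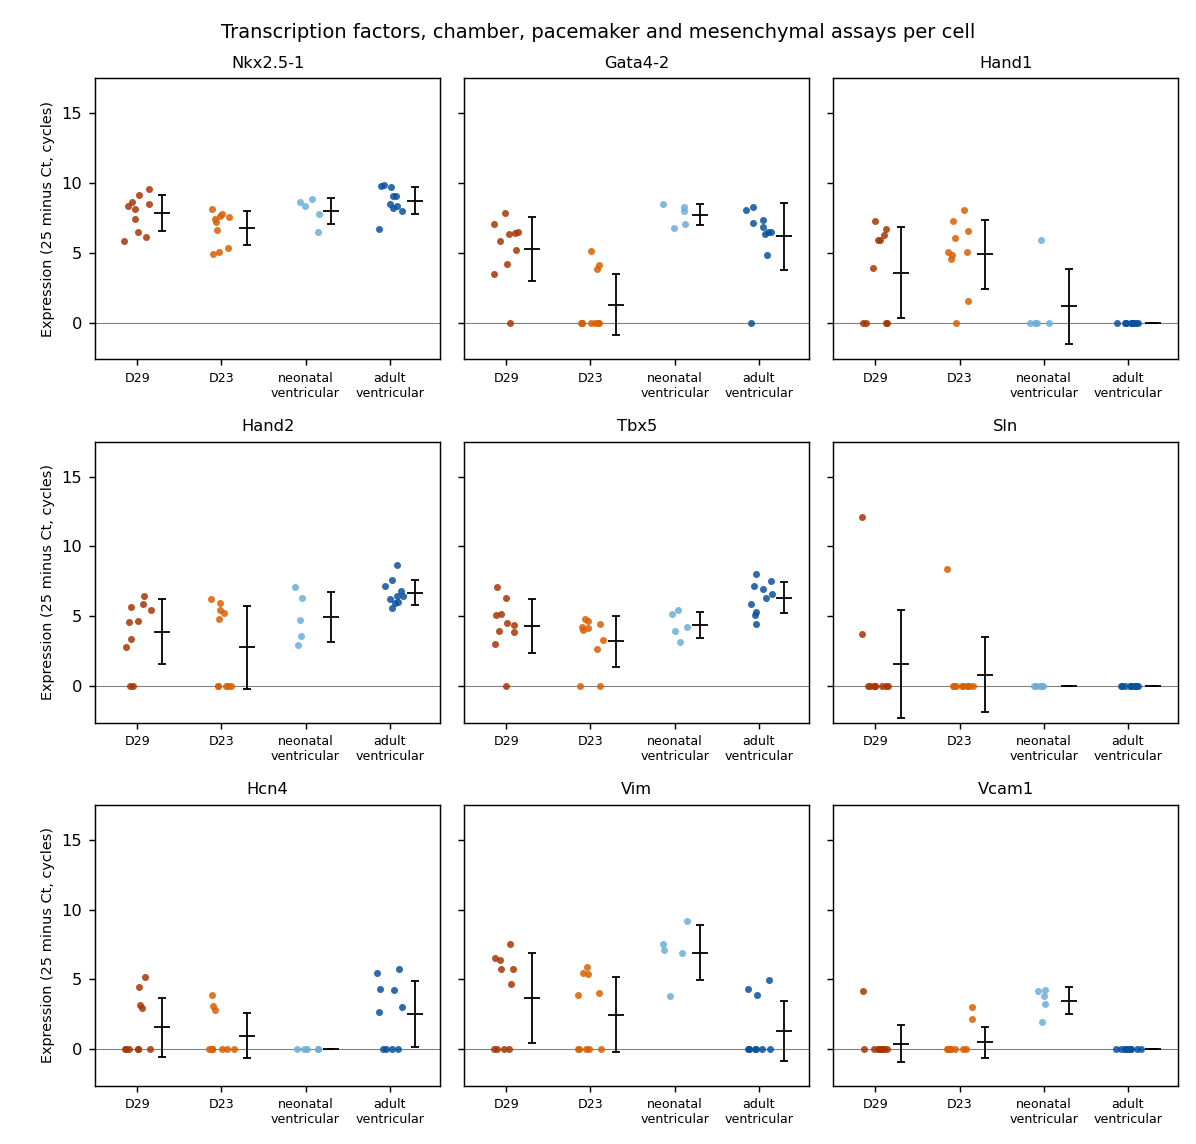
Expression (25 minus Ct, cycles) of transcription factor, chamber, pacemaker and mesenchymal assays in single cells of D29, D23, neonatal and adult ventricle; points are cells, black marks means and bars SD between cells, which can reach below 0. Hand1 is at 0 in all adult cells and in 4 of 5 neonatal cells, Sln is at 0 in every ventricular cell, and Vcam1 is detected in all 5 neonatal cells and 3 of 20 late cells.

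Of the 4 mesenchymal assays, 3 were lower (Vim, Pdgfra and Vcam1) and 1 higher (Fn1) than in neonatal cells, while 2 were higher (Vim and Fn1) and 0 lower than in adult cells. Vim, an intermediate filament of mesenchymal and immature cells, was detected in 11 of 20 late cells up to 7.5 cycles (median 3.98), against 7.56, 7.11, 9.21, 6.89 and 3.80 in neonatal cells and 3 of 10 adult cells up to 4.97. The differences were -3.85 and 1.75, so the late mean stood between the ages. The positive control of Vim, moved back, was 1.02 cycles higher in the late table, and its bearing on these values was not tested. Over the cells with both assays, Vim minus Tnnt2-2 was -4.99 ± 1.46 in late (n = 11), -5.85 ± 1.82 in neonatal (n = 5) and -10.48 ± 1.04 in adult cells (n = 3). Over all cells, with undetected assays at 0, it was -7.56 in late, -5.85 in neonatal and -13.31 in adult cells, so the late and neonatal means changed order.

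The adhesion molecule Vcam1 was detected in 3 of 20 late cells and in all 5 neonatal cells, at 4.17, 3.28, 4.25, 3.83 and 1.96, a difference of -3.03 cycles (-0.38 over detecting cells). Adult cells detected it in 0 of 10, so that its share there is at most 30%. Fn1 (fibronectin) was detected in 7 of 20 late cells at a highest value of 4.88, against 0 of 5 neonatal and 0 of 10 adult cells. Pdgfra, a growth factor receptor of mesenchyme, was detected in 4 of 20, 3 of 5 and 1 of 10 cells. Any of these 4 mesenchymal assays was detected in 14 of 20 late, 5 of 5 neonatal and 3 of 10 adult cells, and their summed level ran from 0 to 20.1 in late cells (median 4.45), 5.76 to 18.7 in neonatal (median 15.6) and 0 to 10.3 in adult cells (median 0). Each of these cells also detected the 4 contractile assays named first, and the part of other cells' RNA in these values was not tested.

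Smooth muscle genes were split. Cnn1 (calponin, an actin-binding protein of smooth muscle) was detected in 4 of 20 late cells up to 7.37 and in no ventricular cell, a difference of 1.16 in both comparisons. Cnn2, its more widely expressed relative, was detected in 6 of 20 late, 3 of 5 neonatal and 8 of 10 adult cells, with differences of -1.55 and -3.60. Over detecting cells the differences of Cnn2 were 0.29 and -0.92, and relative to the positive control moved back they were -5.44 and -7.49. Sm22A lay within 1 cycle of both ages. Myh11, smooth muscle myosin and the defining marker of the list, was detected in 0 of 20 late cells (at most 15%), in 0 of 5 neonatal cells and in 1 of 10 adult cells. The summed level of these 4 assays ran from 0 to 13.6 in late cells, 0 to 6.61 in neonatal and 0 to 16.7 in adult cells.

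No endothelial assay gave a signal in the late cells. Flk-1 (the VEGF receptor Kdr), Cdh5 (VE-cadherin), Pecam1 and Vwf were each detected in 0 of 20 late cells, a share of at most 15%. At least 1 of them was detected in 2 of 5 neonatal and 4 of 10 adult cells, and their summed level reached 15.96 in neonatal and 10.9 in adult cells. Neo-ventricular-1, the neonatal cell with 3 of them, also had the highest Tnnt2-1 and Myl2 of the neonatal cells. Flk-1 and Cdh5 were the 2 called lower in both comparisons, by 1.28 and 1.15 against neonatal and 1.48 and 1.08 against adult cells. Both neonatal differences come from Neo-ventricular-1, at 6.397 for Flk-1 and 5.77 for Cdh5, and are 0 without it.

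Of the progenitor genes, Isl1-1, Kit-1, Mesp1 and also Tbx1, a factor of the second heart field, were detected in no cell of the 3 sets. Isl1-2 was detected in 2 of 20 late cells, up to 2.48 cycles, and in no ventricular cell, and Kit-2 in 4 of 20 late, 1 of 5 neonatal and 1 of 10 adult cells. Any of the 7 progenitor assays, which take in Flk-1 and Pdgfra, was detected in 10 of 20 late, 3 of 5 neonatal and 5 of 10 adult cells. The pluripotency factor Pou5f1 was detected in all 20 late cells at 5.53 ± 0.47, in all 5 neonatal cells at 5.11 ± 0.89 and in 9 of 10 adult cells at 3.71 ± 1.99 (SD), so its signal was not peculiar to cells of ES origin. It was 1.81 cycles higher than in adult cells. Sox2 was detected in 5 of 20, 4 of 5 and 6 of 10 cells, with differences of -0.89 and -1.15. The housekeeping assay Actb was at 5.73 ± 0.91 in late, 4.91 ± 0.76 in neonatal and 4.60 ± 2.34 in adult cells, with adult-ventricular-3 undetected. As Actb differed the other way from the contractile assays, centring each cell on it gave larger contractile medians, -3.04 and -4.41.

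**Figure D5:**
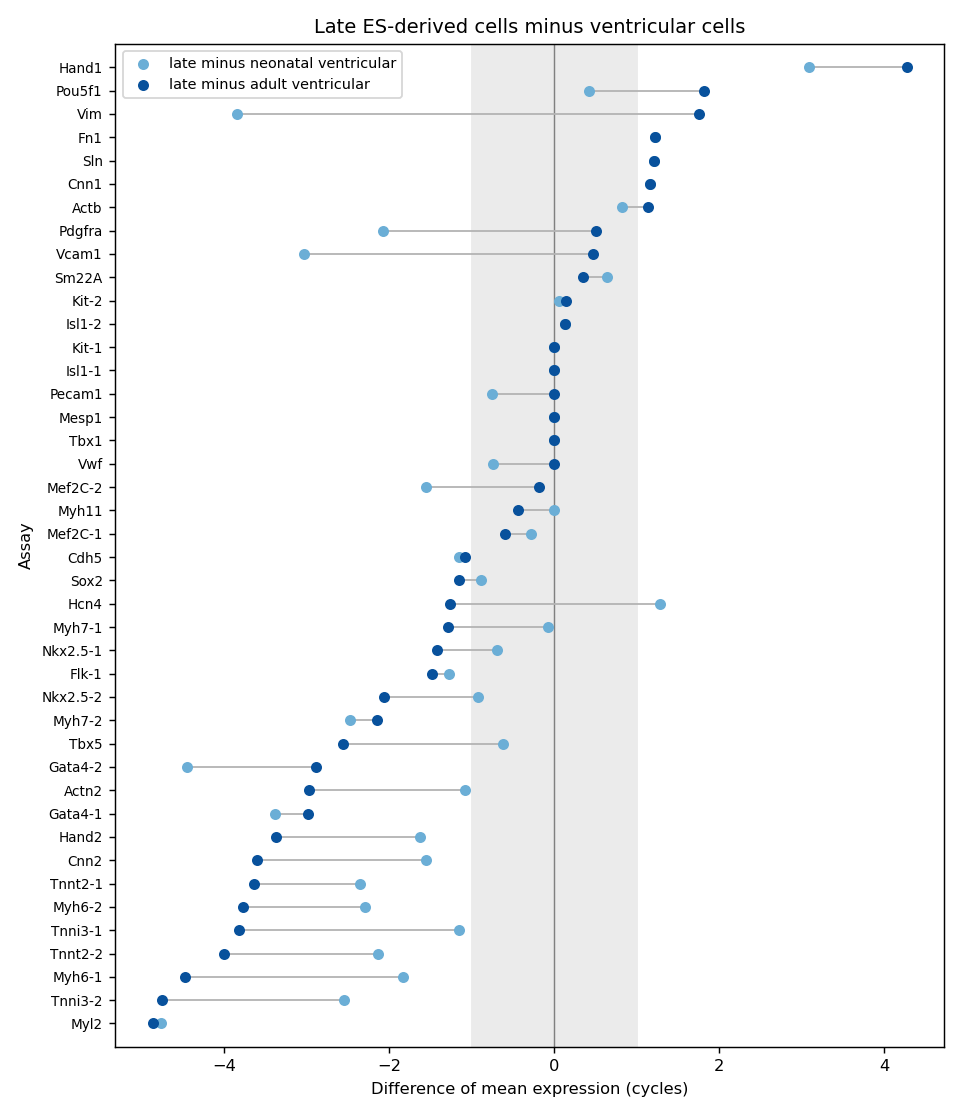
Difference of mean expression (cycles) between late ES-derived and neonatal (light points) or adult ventricular cells (dark points) for each of the 42 assays, ordered by the adult difference, with the band within 1 cycle in grey; where 1 point shows, both coincide. Myl2 is lowest in both comparisons, at -4.77 and -4.86, and Hand1 highest, at 3.08 and 4.27.

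To place the late cells on the path between the ages, assays were picked that differed by at least 1 cycle between adult and neonatal ventricle, without use of the late cells. Of 13 assays higher in adult cells, the late mean lay beyond the neonatal mean, away from the adult one, in 12, and between the 2 in 1 (Hcn4). These 12 were 8 contractile assays, Tbx5, Nkx2.5-2, Hand2 and Cnn2, with Myh6, Tnni3 and Tnnt2 counted by 2 assays each. A late mean below the neonatal one was common among all 42 assays, whose median difference was -0.82. Any offset counted, and Myh7-1 (-0.08), Tbx5 (-0.62) and Nkx2.5-2 (-0.92) were within 1 cycle of the neonatal mean. Of 7 assays lower in adult cells, the late mean lay beyond the neonatal side in 2 (Hand1 and Pou5f1), between in 3 (Vim, Vcam1 and Pdgfra) and beyond the adult side in 2 (Gata4-2 and Mef2C-2). Pou5f1 was only 0.42 from the neonatal mean, and Mef2C-2 differed by only -0.18 from the adult mean. Relative to Actb it was 10 of 11 beyond the neonatal side for the first kind, and 1, 4 and 5 of 10 for the second. Centred on the median detected assay only 3 assays were higher in adult cells, of which 2 lay beyond the neonatal side and 1 between, and of 11 lower in adult cells 3 lay beyond the neonatal side, 4 between and 4 beyond the adult side.

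By the mean absolute difference over all assays, 19 of 20 late cells were nearer to the neonatal than to the adult mean, and 1 was nearer to the adult mean. The median distance was 1.78 cycles to neonatal and 2.05 to adult, whereas neonatal cells lay at a median of 0.959 from the mean of the other neonatal cells and adult cells at 1.19 from theirs. With each cell centred on its median detected assay, 7 late cells were nearer to neonatal and 13 to adult, and with cells centred on Actb 17 and 3. The nearer age thus turned on centring on the median detected assay and not on Actb.

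Other sets of the series put these levels in context, in further tables. The contractile mean per cell, 8.74 ± 1.28 in the late cells (SD, n = 20), was 8.83 ± 1.64 in the 6 D8 cells of the ES cultures and 10.45 ± 0.402 in the 6 E9.5 embryo cells. Myl2 averaged 8.50 ± 3.34 in late, 7.76 ± 4.32 in D8 and 11.01 ± 1.73 in E9.5 cells. Tnni3-1 was ordered otherwise, at 10.05 ± 0.84 in late, 8.71 ± 1.29 in D8 and 9.37 ± 0.85 in E9.5 cells. Vim was detected in 11 of 20 late cells, all 6 D8 cells, at 7.4 ± 1.13, and all 6 E9.5 cells, at 9.34 ± 0.77. Vcam1 was detected in 3 of 20 late, 1 of 6 D8 and 5 of 6 E9.5 cells.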

How the data were processed

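Per the labels' protocols, cells were sorted singly, lysed and reverse transcribed in 1 step, and the cDNA was pre-amplified and read with the TaqMan assays on Fluidigm chips. What the authors deposited is the quantification cycle (Ct) of each of 42 assays, a unit other than counts. The values end at 25, taken as no signal. Ct threshold, cycle number and quality filter: not given in the sources used here. Values are not relative to Actb.

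Expression was computed as 25 minus Ct, and means cover all cells, undetected ones at 0, without a test. Called means at least 1 cycle. Members, lists and alternatives were chosen with earlier results of these data known. Named assays are, for each comparison, the 12 largest differences each way of at least 1 cycle, assays whose detecting share differs by 50 points, list members, and Myl2, Tnni3-1, Myh6-1 and Hand1. Other assays and single cells named were chosen after their values were seen. Intervals are exact (Clopper-Pearson, 95%), and a count of 0 is limited to 3 counts of the total. The number of cells, 5 to 20 a set, limits the precision. The script was checked on simulated cells. Alternatives were centring each cell (Actb, or its median detected assay), a limit of Ct 23, detecting cells (at least 3), medians, a filter on cells, each day, recurring cells left out, values relative to the positive control, assays averaged per gene, a threshold of 2 cycles, and each neonatal cell left out. Python 3.11.15, pandas 2.3.3 and numpy 2.4.6 were used.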

Additional observations from a re-analysis of the deposited data

Results flagged for a closer look

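In 5 of 64 combinations of a set and a measure, 1 cell stood further from its set than Dixon's 95% limit allows. The limit assumes normally spread values, for which chance gives about 1 in 20. Measures with undetected cells at 0 are not so spread, so this rate does not hold for them. A lone detecting cell is flagged at any level. Tnnt2-1 in D23-9 was at 6.61 cycles, against 9.33 to 11.5 in the other D23 cells, and this cell also had the lowest Actn2 and Myh6-1 of the late cells. Neo-ventricular-1 was high in Tnni3-1, at 12.1 against 10.8 to 11.1 in the other neonatal cells, and in Myh6-2, at 12.3 against 10.7 to 10.9. Leaving this cell out moved the contractile median against neonatal cells to -1.93. Hand1 in Neo-ventricular-3 was at 5.95 and undetected in the other 4 neonatal cells. Gata4-2 in adult-ventricular-7 was 0, against 4.88 to 8.30 in the other adult cells.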

How the results depend on the processing

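Of 52 assay differences of at least 1 cycle, 34 kept their sign in every alternative run, 12 were 0 in at least 1 and of opposite sign in none, and 6 turned to the opposite sign. The 12 were Sln, Cnn1, Fn1, Flk-1 and Cdh5 in both comparisons and Hcn4 against neonatal cells, at 0 as medians, and Actb against adult cells, at 0 when centred on itself. Leaving out Neo-ventricular-1 took Flk-1, Cdh5, Actn2, Tnni3-1 and Cnn2 against neonatal cells under 1 cycle (0, 0, -0.85, -0.93 and -0.99), Neo-ventricular-2 Cnn2 (-0.83) and Neo-ventricular-3 Actn2 (-0.97). Over detecting cells, 4 against neonatal cells turned positive: Gata4-1 (0.0616), Hand2 (0.171), Myh7-2 (0.423) and Cnn2 (0.287). Relative to the positive control as given, Hcn4 against adult cells was 0.643 and Vim -3.93. The contractile medians kept their sign throughout. They moved most relative to that control, to -4.02 (neonatal) and -5.81 (adult), and otherwise ran from -1.37 (D29 only) to -3.04 (Actb) and from -2.84 (median detected assay) to -4.48 (control moved back). Leaving out 1 neonatal cell gave -1.93 to -2.29, with 5 to 6 assays higher and 16 to 21 lower. The 5 assays higher than in neonatal cells became 1 at the stricter limit, with the control moved back or at 2 cycles, 2 over detecting cells, as medians or in D23 alone, and 3 with the control as given. The 19 lower became 10 over detecting cells and 11 at 2 cycles. The 7 higher than in adult cells became 3 at the stricter limit, 2 over detecting cells or with either control, 4 as medians and 1 at 2 cycles. Detecting cells and controls allow 25 or 26 assays only. The median of all differences moved by -0.48 on Actb and by -0.34 on the median detected assay against neonatal cells, and by -0.11 and 0.48 against adult cells. The Ct limit of 25 hides weak signals, and 5 neonatal cells bound any share loosely. No paired analysis was possible because the cell numbers, given within each set, tie to no shared animal, culture or batch.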
